A study of Mus musculus with 6 samples.

Results

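Tendon genes were followed in RNA of embryonic mouse diaphragm, with and without Schwann cells. The list held 10 of the 23073 genes with a value, namely Scx, Mkx, Tnmd, Kera, Dcn, Lum, Fmod, Thbs4, Comp and Chodl. It was drawn up because Tnmd and Kera were higher in erbB3 mutant than in wild-type (WT) libraries, so the list was chosen by the RPKM of those genes in these libraries, which are given without a test. The other 8 genes were listed with them as genes of tendon or of fibrous connective tissue, although Chodl is also known from muscle and motor neurons. The question was whether the tendon genes as a whole followed Tnmd and Kera.

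All embryos were at E14.75, and each of the 3 groups had 2 libraries of diaphragm muscle. The WT libraries (5 and 6) and the erbB3 mutant libraries (KO 1 and 2), whose embryos lack Schwann cells, held total RNA of whole muscle. The Wnt1-Ribotag libraries (1 and 2) held RNA bound to ribosomes carrying a hemagglutinin tag, precipitated with an antibody from diaphragms of Wnt1-Cre, Ribotag embryos that were WT for erbB3. In those embryos the tag is switched on by Cre in cells with a history of Wnt1 expression, which are neural crest derivatives and include Schwann cells, and the diaphragms of a whole litter were pooled before it was known which embryos were Cre-positive, so part of the diaphragms carried no tag. The Wnt1-Ribotag libraries differed from the mutant in both genotype and RNA preparation, which cannot be told apart. By the study's text, the libraries of a group came from separate diaphragm samples, and for Wnt1-Ribotag from separate pools.

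Tendons form from mesenchymal progenitors that express the transcription factor Scleraxis (Scx). As tendon cells mature they express the homeobox factor Mohawk (Mkx) and the membrane glycoprotein tenomodulin (Tnmd), and surround themselves with parallel fibrils of type I collagen. Small leucine-rich proteoglycans, among them decorin (Dcn), lumican (Lum), fibromodulin (Fmod) and keratocan (Kera), bind these fibrils and set their spacing and width, while thrombospondin 4 (Thbs4) and cartilage oligomeric matrix protein (Comp) are matrix glycoproteins of tendon and of the junction between tendon and muscle. In the diaphragm, muscle fibers insert on a central tendon and on the ribs.

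Scx is a basic helix-loop-helix protein, a class that binds the E-box CANNTG, which reads the same on both strands. The bases upstream of 4 of the listed genes are shown because they let the letters of this motif be compared between Tnmd, whose level set the list apart, and Chodl, Fmod and Thbs4. The sequences are from RefSeq on GRCm38.p6, run 5′ to 3′ on the strand of the gene and end at its start, with E-box letters in capitals. The windows are chrX:133850758-133850979 on the plus strand for Tnmd, chr16:78930698-78930947 on the plus strand for Chodl, chr1:134037004-134037253 on the plus strand for Fmod and chr13:92794819-92795068 on the minus strand for Thbs4.
Tnmd: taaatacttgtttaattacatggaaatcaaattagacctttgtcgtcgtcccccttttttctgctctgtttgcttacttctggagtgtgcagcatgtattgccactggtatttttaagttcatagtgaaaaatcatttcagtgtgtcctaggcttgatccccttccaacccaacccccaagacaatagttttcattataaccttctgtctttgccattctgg
Chodl: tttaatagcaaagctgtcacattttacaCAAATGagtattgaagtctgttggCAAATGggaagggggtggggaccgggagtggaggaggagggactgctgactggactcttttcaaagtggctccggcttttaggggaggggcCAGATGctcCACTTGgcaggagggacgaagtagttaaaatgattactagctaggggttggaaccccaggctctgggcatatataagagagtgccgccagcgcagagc
Fmod: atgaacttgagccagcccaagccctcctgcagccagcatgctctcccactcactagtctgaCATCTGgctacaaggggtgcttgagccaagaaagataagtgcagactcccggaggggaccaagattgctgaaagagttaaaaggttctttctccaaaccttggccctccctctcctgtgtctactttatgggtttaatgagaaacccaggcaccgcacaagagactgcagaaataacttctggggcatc
Thbs4: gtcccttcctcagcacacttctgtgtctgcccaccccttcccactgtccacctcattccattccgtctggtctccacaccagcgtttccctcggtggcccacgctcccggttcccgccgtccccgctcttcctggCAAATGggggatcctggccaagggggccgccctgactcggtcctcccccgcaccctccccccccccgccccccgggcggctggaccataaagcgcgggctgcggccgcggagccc
The 222 bases before Tnmd held 0 E-boxes, whereas 62.4% of 32817 mouse promoters held at least 1 in a window of that length. The 250 bases before Chodl held 4, CAAATG at 2 positions, CAGATG and CACTTG. Fmod and Thbs4 held 1 each, CATCTG and CAAATG, where 66.2% of promoters held at least 1 in 250 bases. A match is a match of letters only, and its absence says nothing of regulation from elsewhere.

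The level of each gene was given as RPKM, reads normalised to the length of the gene and to the number of mapped reads. The depth was between 100178863 and 230216660 mapped reads, and read counts were not used here. Fold changes are differences of log2(RPKM + 0.5), which understates the change of genes near the pseudocount, and adjusted p-values are from limma over all genes tested with Benjamini-Hochberg adjustment. The log2 fold change of the median gene in mutant vs. WT muscle was -0.10, and 0.0042 with median-ratio scaling, which sets the median gene of the libraries equal. As to the labels, Erbb3 itself had an RPKM of 21.5 and 11.9 in the mutant and 16.5 and 15.8 in WT muscle, so its transcript level does not separate the genotypes. Sox10, a transcription factor of Schwann cells, was between 0.00854 and 0.0178 RPKM in the mutant, 2.16 and 2.89 in WT muscle and 15.5 and 32.2 in Wnt1-Ribotag. As to the tissue, 18 of 18 skeletal muscle markers passed the filter for a test, a mean of 0.5 RPKM or more.

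In mutant vs. WT muscle, Tnmd and Kera had 2.99 and 3.17 times the WT level, whereas Chodl had 1.57 and Thbs4 0.752 times, and the other genes above the filter differed by at most 0.23 on the log2 scale. Among the 7 other genes that passed the filter, 0 passed an adjusted p of 0.05 in limma. Chodl and Thbs4 had an unadjusted p of 0.0056 and 0.0339, a share of 2 of 7 where 12.0% of all 14052 genes tested were under 0.05. For comparison, 0.171% of all genes passed the adjusted threshold in either direction, which was 24 genes. The 7 higher ones made up 0.0498% of the genes and the 17 lower ones 0.121%.

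**Figure D1:**
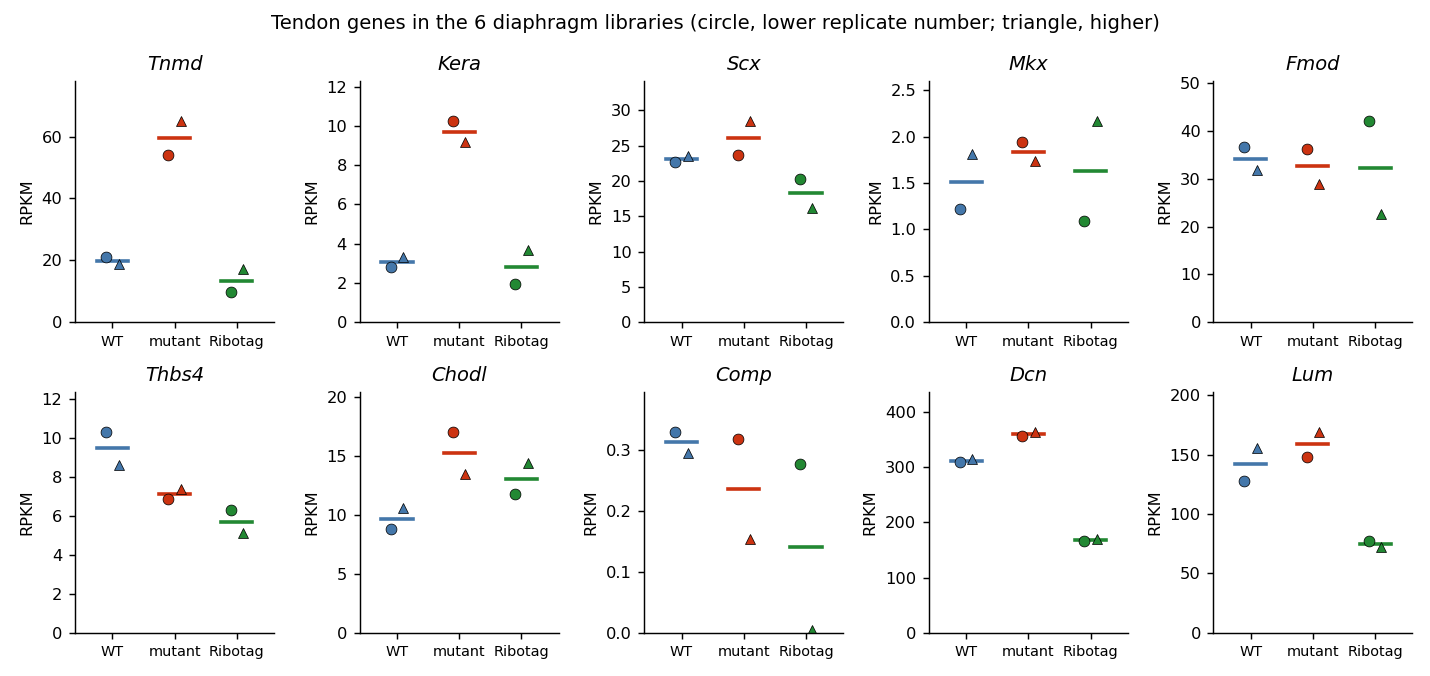
RPKM (y axis, linear, a separate scale for each gene) of the 10 tendon genes in WT (blue), erbB3 mutant (red) and Wnt1-Ribotag (green) libraries. Symbols are single libraries and bars the group means of 2 libraries; the mutant libraries stand above the others for Tnmd and Kera, and Dcn and Lum are lowest in Wnt1-Ribotag.

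Tnmd (ENSMUSG00000031250, chromosome X, 133850980 to 133865577 on GRCm38) encodes tenomodulin, a transmembrane glycoprotein of differentiated tendon cells. Its RPKM was 21.02 in WT 5, 18.8 in WT 6, 54.1 in KO 1, 64.9 in KO 2, 9.66 in Wnt1-Ribotag 1 and 17.1 in Wnt1-Ribotag 2. Both mutant libraries stood above all others, and both Wnt1-Ribotag libraries below WT. The mean was 59.5 ± 7.64 RPKM (SD, n = 2) in the mutant vs. 19.9 ± 1.58 in WT muscle, a ratio of 2.99. On the log2 scale the difference was 1.55 (SE 0.15), and lay between 1.34 and 1.76 over the 4 pairs of a mutant with a WT library. Of all genes tested, 7 had a larger one.

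Kera (ENSMUSG00000019932, chromosome 10, 97606879 to 97613692) encodes keratocan, a keratan sulfate proteoglycan best known from the cornea and also made in tendon. Its RPKM was 2.82 in WT 5, 3.31 in WT 6, 10.2 in KO 1, 9.18 in KO 2, 1.96 in Wnt1-Ribotag 1 and 3.68 in Wnt1-Ribotag 2. The mutant libraries were again above all others, while the Wnt1-Ribotag libraries lay on either side of WT. The mean was 9.71 ± 0.750 RPKM in the mutant vs. 3.07 ± 0.346 in WT muscle (SD, n = 2), a ratio of 3.17. This made a log2 fold change of 1.52 (SE 0.15), with the 4 pairs between 1.34 and 1.69.

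Scx and Mkx, the transcription factors of the list, did not stand apart in the same way. Scx (chromosome 15, 76457452 to 76459458) had an RPKM of 22.7 and 23.5 in WT, 23.7 and 28.5 in the mutant and 20.3 and 16.2 in Wnt1-Ribotag. The lower mutant library was just above the higher WT library. In mutant vs. WT muscle the log2 fold change was 0.17 (SE 0.14, 95% interval -0.16 to 0.49, adjusted p = 0.588 from limma). Scx lies within Bop1, a ribosome biogenesis gene on the opposite strand (76452989 to 76477277), and without known strand of the reads those of the overlap cannot be told apart. Bop1 itself was 21.9 and 21.6 RPKM in WT and 17.4 and 18.1 in the mutant, a log2 fold change of -0.29 (adjusted p = 0.416 from limma).

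Mkx encodes a homeobox factor needed for collagen synthesis in tendon. It was low in all groups, at 1.22 and 1.81 RPKM in WT, 1.94 and 1.74 in the mutant and 1.09 and 2.17 in Wnt1-Ribotag. The mutant libraries overlapped those of WT, and the difference of 0.23 on the log2 scale (SE 0.19, 95% interval -0.21 to 0.67) had an adjusted p of 0.583 in limma.

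Kera lies in a cluster of 4 proteoglycan genes on chromosome 10, in the order Dcn, Lum, Kera and Epyc, that spans 203 kb. The gaps between neighbours are 47.0, 34.2 and 30.4 kb. Dcn (97479609 to 97518143) encodes decorin, which is made by fibroblasts of most connective tissues. It had the highest RPKM of the list in all libraries, at 309 and 314 in WT, 356 and 364 in the mutant and 167 and 170 in Wnt1-Ribotag. The mutant libraries did not overlap those of WT, and the log2 fold change was 0.21 (SE 0.15, 95% interval -0.14 to 0.55, adjusted p = 0.535 from limma).

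Lum (97565128 to 97572703) encodes lumican, a keratan sulfate proteoglycan of cornea, skin and tendon. Its RPKM was 128 and 155 in WT, 148 and 169 in the mutant and 77.1 and 72.2 in Wnt1-Ribotag, and the mutant and WT libraries overlapped. The log2 fold change was 0.17 (SE 0.16, 95% interval -0.20 to 0.53, adjusted p = 0.632 from limma). Epyc, the gene of the related proteoglycan epiphycan on the other side of Kera, was between 0.971 and 1.93 RPKM in all 6 libraries, with a log2 fold change of 0.043 in mutant vs. WT muscle (adjusted p = 0.937 from limma). The difference of Kera in the mutant was thus seen beside differences of 0.043 to 0.21 on the log2 scale in its 3 neighbours.

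The levels within a library show the same contrast and do not depend on scaling between libraries. The ratio of Kera to Lum was 0.069 in KO 1 and 0.0542 in KO 2, against 0.022 and 0.0213 in WT and 0.0254 and 0.0509 in Wnt1-Ribotag. Lum over Dcn, by contrast, was between 0.416 and 0.494 in all 6 libraries. The ratio of Tnmd to Scx was 2.28 in each mutant library, 0.927 and 0.798 in WT, and 0.477 and 1.05 in Wnt1-Ribotag. Tnmd over Kera lay between 4.65 and 7.44 over the 6 libraries. These ratios contain the values that chose the list and are a description.

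Fmod (chromosome 1, 134037254 to 134048277) encodes fibromodulin, a proteoglycan that takes part in the assembly of tendon fibrils. It was 36.6 and 31.8 RPKM in WT, 36.3 and 28.9 in the mutant and 42.1 and 22.7 in Wnt1-Ribotag, so that all 3 groups overlapped. Between mutant and WT muscle it differed by -0.075 on the log2 scale (SE 0.16, 95% interval -0.44 to 0.29, adjusted p = 0.839 from limma). Its sign turned with median-ratio scaling, where it was 0.044.

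The thrombospondins of the list were not higher in the mutant. Thbs4 (chromosome 13, 92751590 to 92794818) had an RPKM of 10.3 and 8.62 in WT, 6.88 and 7.36 in the mutant and 6.29 and 5.09 in Wnt1-Ribotag. The mutant libraries were below both WT libraries. The log2 fold change was -0.38 (SE 0.15, 95% interval -0.73 to -0.037), but did not pass the adjusted threshold (adjusted p = 0.393 from limma). Comp, which is more abundant in cartilage and mature tendon, was under the filter at 0.329 and 0.295 RPKM in WT, 0.317 and 0.154 in the mutant and 0.277 and 0.00494 in Wnt1-Ribotag. It was not tested for that reason.

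Chodl (chromosome 16, 78930948 to 78951733) encodes chondrolectin, a membrane protein with a C-type lectin domain that is also known from muscle and motor neurons. Its RPKM was 8.85 and 10.6 in WT, 17.1 and 13.5 in the mutant and 11.8 and 14.4 in Wnt1-Ribotag. The mutant libraries were above those of WT, with a ratio of the means of 1.57, and Wnt1-Ribotag was above WT as well. The log2 fold change of 0.62 (SE 0.17, 95% interval 0.24 to 1.01) was the largest in the list after Tnmd and Kera, and had an adjusted p of 0.259 in limma.

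Over the 7 genes tested other than Tnmd and Kera, the median log2 fold change was 0.17, beside -0.10 over all genes tested, with 5 genes above and 2 below 0. Without WT 5 this median was 0.028 and without KO 2 it was 0.086. Of all genes 33.0% were above 0. Scx, Chodl and Dcn were higher in both mutant libraries than in both WT libraries, and Thbs4 was lower, where 12.7% of all genes tested did not overlap upward and 37.4% downward. With median-ratio scaling 6 of the 7 were above 0 and the median was 0.29 beside 0.0042 over all genes, whereas with quantile normalization the median was 0.055. Summed over the 8 genes other than Tnmd and Kera, the level was 591 to 613 RPKM in the mutant and 517 to 546 in WT muscle, most of it from Dcn and Lum.

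Further tendon genes were listed by their role, with earlier results of these data known. Of 72 genes in 3 lists, of regulators, signalling and matrix, 67 were tested and 0 passed an adjusted p of 0.05 in limma, with 18 under an unadjusted p of 0.05, where 12.0% of all genes were. The median log2 fold change was -0.29, with 11 above and 56 below 0, where 33.0% of all genes were above 0. In both mutant libraries 4 of these genes were above and 31 below both WT libraries, where 12.7% and 37.4% of all genes were. Without KO 2 the median of the 67 was -0.065, beside -0.059 over all genes. None of the 67 was called under any of the 13 alternatives.

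**Figure D2:**
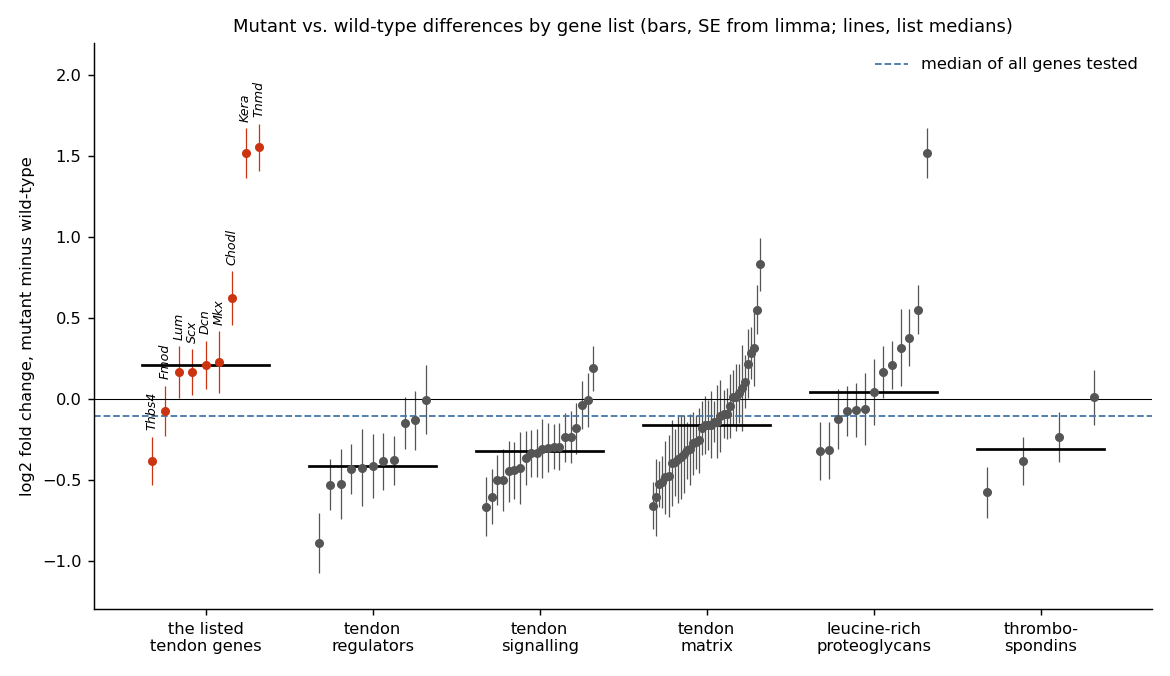
Log2 fold change in mutant minus WT muscle (y axis) of each gene tested in the 10-gene list (red, named) and in 5 further lists (grey). Points are genes, vertical bars the SE from limma, black lines the list medians, and the dashed line the median of all genes tested at -0.10; Tnmd and Kera stand apart at 1.55 and 1.52, and Kera is drawn again among the leucine-rich proteoglycans.

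Among 11 regulators tested, transcription factors expressed in tendon progenitors or mature tendon, 0 passed in limma and 5 had an unadjusted p under 0.05. The median log2 fold change was -0.41, all 11 were below 0, and 7 were lower without overlap. As above, 0.171% of all genes passed, 12.0% had such an unadjusted p, 33.0% were above 0 and 37.4% were lower without overlap. With median-ratio scaling 10 of the 11 were below 0 and with quantile normalization 9, and without KO 2 the median was -0.25 with 8 below 0. Hic1, a transcriptional repressor of connective tissue progenitors, was 30.2 and 29.1 RPKM in WT and 24.7 and 19.2 in the mutant (log2 fold change -0.43, adjusted p = 0.378 from limma). Meox1, a homeobox gene of somites, was 23.7 and 22.1 RPKM in WT and 13.7 and 17.9 in the mutant (log2 fold change -0.53, adjusted p = 0.310 from limma). Nfatc4, which acts upstream of Scx in adult tendon, was 23.3 and 27.3 RPKM in WT and 21.1 and 17.6 in the mutant (log2 fold change -0.38, adjusted p = 0.399 from limma).

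TGF-beta and FGF signals induce Scx in tendon progenitors. In the signalling list 20 of 24 genes were tested, 0 passed in limma and 7 had an unadjusted p under 0.05. The median was -0.32, with 19 of the 20 below 0, and 15 lower without overlap. Of all genes 0.171% passed, 12.0% had such an unadjusted p, 33.0% were above 0 and 37.4% were lower without overlap. Without KO 2 the median of the signalling list was -0.21 with 16 below 0. Tgfb3, the gene of a TGF-beta ligand, was 34.4 and 39.6 RPKM in WT and 32.7 and 24.9 in the mutant, a log2 fold change of -0.37 (adjusted p = 0.421 from limma). The FGF receptor gene Fgfr1 was 33.1 and 34.4 RPKM in WT and 29.1 and 19.3 in the mutant, a log2 fold change of -0.50 (adjusted p = 0.392 from limma). Spry2, a target and inhibitor of FGF signalling, was 25.4 and 24.3 RPKM in WT and 24.9 and 19.2 in the mutant, and overlapped.

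The matrix list was tested in full, with 36 genes, of which 0 passed in limma and 6 had an unadjusted p under 0.05. Of all genes 0.171% passed, 12.0% had such an unadjusted p and 33.0% were above 0. The median of the matrix list was -0.16, with 10 genes above and 26 below 0. Without overlap 3 were higher and 9 lower, where 12.7% and 37.4% of all genes were. The 3 collagen genes with the highest RPKM differed more between the mutant libraries than between genotypes. Col1a1 was 765 and 691 RPKM in WT, 753 in KO 1 and 418 in KO 2. Col1a2 was 660 and 662 RPKM in WT, 667 in KO 1 and 411 in KO 2, and Col3a1 was 942 and 934 RPKM in WT, 1031 in KO 1 and 701 in KO 2. Without KO 2 the median of the matrix list was 0.030 and 22 of its 36 genes were above 0, whereas without KO 1 it was -0.40 and 30 were below 0.

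Of the small leucine-rich proteoglycans 13 of 17 passed the filter, of which Kera chose the list and is given without a test. Among the others 0 passed in limma and 1 had an unadjusted p under 0.05. The median with Kera was 0.043, with 7 above and 6 below 0. Bgn, the gene of biglycan, was 170 and 164 RPKM in WT and 157 and 114 in the mutant, a log2 fold change of -0.32 (adjusted p = 0.467 from limma). Of the 5 thrombospondins 4 were tested, with a median of -0.31 and 0 calls in limma (2 at an unadjusted p under 0.05). Over all genes 0.171% were called and 12.0% had such an unadjusted p. Thbs2 was 23.8 and 26.7 RPKM in WT and 29.5 and 21.8 in the mutant, whereas Thbs3 was 13.3 RPKM in each WT library and 12.7 and 9.91 in the mutant, with log2 fold changes of 0.0098 and -0.23 (adjusted p = 0.984 and 0.509 from limma).

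The base composition of transcripts moved with the mutant vs. WT difference. Over 13638 genes with an annotated transcript, 97.1% of those tested, the log2 fold change fell as the GC content of the longest transcript rose (Spearman's rho -0.41, across genes of the same libraries, which are not independent replicates). This fold change had a median of 0.054 in the eighth of genes with the lowest GC content and -0.24 in the eighth with the highest. The GC content was 43.0% for Tnmd, 40.7% for Kera, 43.2% for Mkx, 43.0% for Chodl, 37.4% for Dcn and 41.9% for Lum, all in the lowest 2 eighths. It was 53.7% for Fmod, 53.9% for Thbs4 and 61.3% for Scx, against a median of 49.8% over all genes. The listed genes thus held more AT-rich transcripts than the regulators, whose median GC content was 57.3%.

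**Figure D3:**
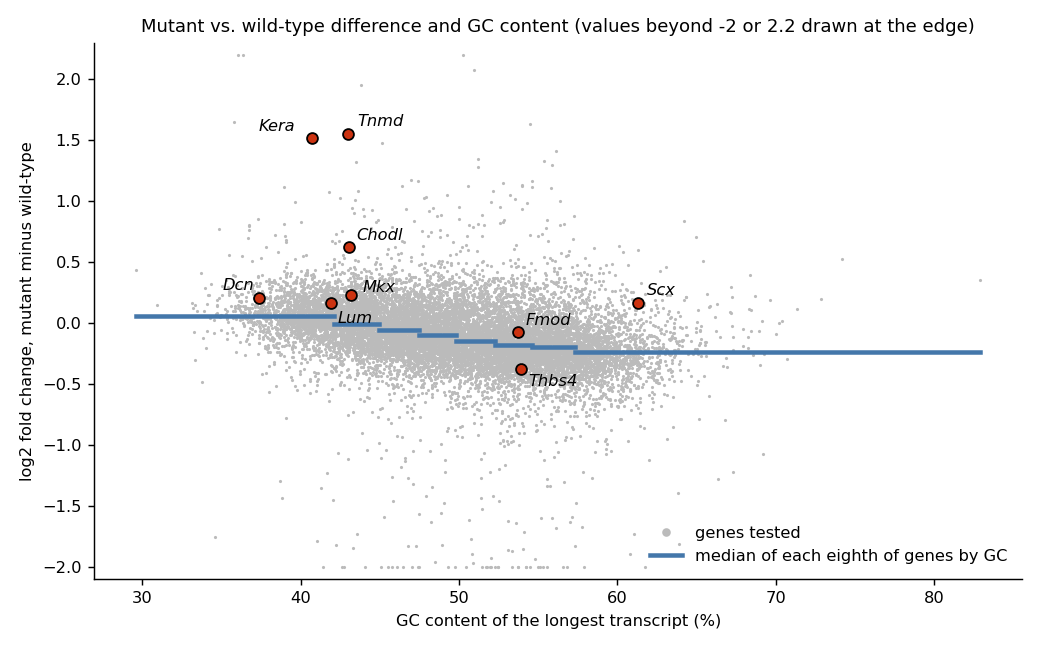
Log2 fold change in mutant minus WT muscle (y axis, values beyond the limits drawn at the edge) against the GC content of the longest transcript (x axis, percent). Grey dots are the 13638 genes tested with a known GC content, blue lines the medians of eighths of these genes, from 0.054 to -0.24, and red circles the 9 tendon genes tested; Tnmd and Kera lie far above the line of their eighth.

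A correction of each library for GC content and transcript length, chosen after the data were seen, left Tnmd at 1.43 and Kera at 1.40 on the log2 scale. Scx was 0.32, Mkx 0.24, Fmod 0.11, Thbs4 -0.20, Chodl 0.57, Dcn 0.17 and Lum 0.093, with adjusted p from limma between 0.464 and 0.781. The sign of Fmod turned under this correction. The medians were then -0.069 for the 67 genes together, -0.16 for the regulators, -0.17 for signalling, -0.0028 for the matrix list and -0.11 for the thrombospondins, beside 0.0018 over all genes, which had been -0.10 before the correction. That of the proteoglycans moved from 0.043 to 0.11. What remains of base composition in these differences was not tested.

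Markers of other cell types differed between the genotypes in their summed level, and their part in the tendon genes was not tested. In bulk tissue, fewer cells of a type and less RNA per cell cannot be told apart. The 18 skeletal muscle markers summed to 5565 to 8018 RPKM in the mutant and 3841 to 4671 in WT muscle, with 12 of the 18 above and 6 below 0, 8 higher in both mutant libraries, 0 calls in limma and 5 with an unadjusted p under 0.05. Of all genes tested 33.0% were above 0, 12.7% higher without overlap and 12.0% under that p. For the muscle markers the median on the log2 scale was 0.23, from -0.35 to 0.74 over the 4 pairs of a mutant with a WT library, and 0.39 with 18 of 18 above 0 after the correction for GC content and length. The 10 liver markers summed to 10.2 to 17.7 RPKM in the mutant and 152 to 498 in WT muscle, and 2 of the 9 tested passed as lower. The 13 Schwann cell markers summed to 26.7 to 48.2 RPKM in the mutant and 55.0 to 62.6 in WT muscle, and 3 of the 10 tested passed as lower. Of all genes tested 0.121% passed as lower.

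Markers of cell types that share genes with tendon were compared as well. The 14 cartilage markers summed to 19.6 to 24.7 RPKM in the mutant and 30.6 to 31.5 in WT muscle. Of these 7 were tested, with a median log2 fold change of -0.44 beside -0.10 over all genes. After the correction for GC content and length the cartilage median was -0.23 beside 0.0018 over all genes. The cartilage collagen gene Col2a1 was 0.887 and 0.862 RPKM in the mutant against 1.67 and 1.32 in WT muscle. The 11 markers of muscle connective tissue summed to 119 to 136 RPKM vs. 139 to 143, and the 6 of mesothelium to 136 to 148 vs. 128 to 142. None of these markers was at the floor in all 6 libraries. Of the 7 cartilage, 10 muscle connective tissue and 6 mesothelium markers tested, 0 passed in limma, where 0.171% of all genes did. An unadjusted p under 0.05 was seen for 4, 0 and 0 of them, and for 12.0% of all genes. Of the 7 cartilage markers tested 4 were lower without overlap, beside 37.4% of all genes.

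**Figure D4:**
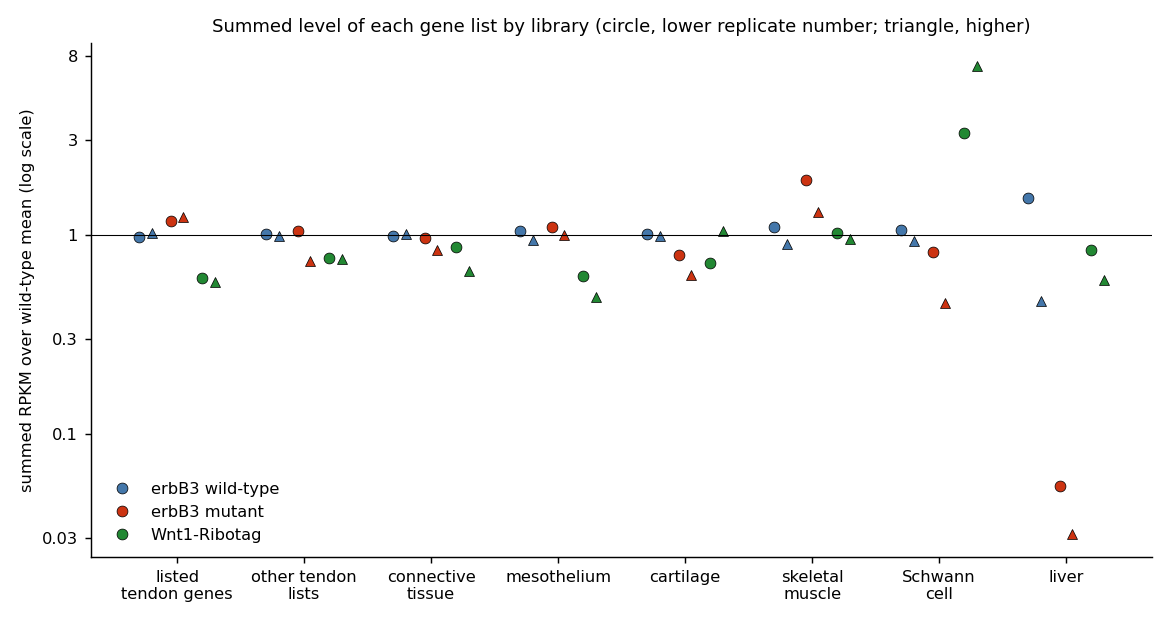
Summed RPKM of each gene list in each library, divided by the mean of the WT libraries (y axis, log scale). Circles and triangles are the libraries with the lower and the higher replicate number of WT (blue), erbB3 mutant (red) and Wnt1-Ribotag (green). The sum of the 10 tendon genes is above WT in the mutant and below it in Wnt1-Ribotag. Most of that sum is from Dcn and Lum, it includes Tnmd and Kera, and single genes go either way. Liver markers are the farthest from WT in the mutant.

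The order of the 10 genes by RPKM, a level per length of gene, changed between the groups in few places. In WT muscle it was Dcn, Lum, Fmod, Scx, Tnmd, Chodl, Thbs4, Kera, Mkx and Comp, and each gene was above the next in both libraries except Chodl, whose libraries overlapped those of Thbs4. In the mutant Tnmd came after Lum, above Fmod and Scx, and Kera was above Thbs4, with no overlap between neighbours. In Wnt1-Ribotag the order was as in WT muscle, except that Scx, Tnmd and Chodl overlapped in turn, and Kera overlapped Mkx.

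RNA from tagged ribosomes addresses which transcripts were in Wnt1-Cre cells. Skeletal muscle markers, whose cells do not derive from the neural crest, summed to 4087 to 4368 RPKM in Wnt1-Ribotag and 3841 to 4671 in WT muscle, so a transcript found in Wnt1-Ribotag is not thereby placed in Wnt1-Cre cells. All 9 genes above the filter were detected in Wnt1-Ribotag, and none of the 10 was at the floor in any library. In Wnt1-Ribotag vs. WT muscle, Dcn was 0.540 and Lum 0.526 times as high. Their log2 fold changes were -0.89 (95% interval -1.28 to -0.50) and -0.92 (95% interval -1.37 to -0.47), with adjusted p of 0.152 and 0.168 in limma. Thbs4 had a log2 fold change of -0.69 (adjusted p = 0.202), Scx of -0.34 (0.369), Chodl of 0.41 (0.328), Fmod of -0.14 (0.832) and Mkx of 0.048 (0.956), all adjusted values being from limma. Of these 7 genes 0 passed the adjusted threshold and 3 had an unadjusted p under 0.05, where 0.00694% and 19.5% of 14418 genes did. Dcn, Lum, Thbs4 and Scx were below WT without overlap and Chodl above, where 31.0% and 23.3% of all genes were.

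In comparison, Schwann cell markers summed to 192 to 418 RPKM in Wnt1-Ribotag, above the 55.0 to 62.6 of WT muscle, while Dcn was at 167 and 170 RPKM. Against the mutant, a comparison that uses the same Wnt1-Ribotag libraries, Dcn was -1.09 (adjusted p = 0.0772) and Lum -1.08 (adjusted p = 0.0805) on the log2 scale in limma, Scx -0.51 (0.299), Thbs4 -0.31 (0.516) and Chodl -0.21 (0.665). Here 0 of 7 passed and 2 had an unadjusted p under 0.05, where 1.19% and 19.3% of 14325 genes did. Dcn, Lum, Scx and Thbs4 were below the mutant without overlap, where 24.4% of all genes were. Tnmd and Kera, given without a test, were -0.61 and -0.15 against WT and -2.16 and -1.67 against the mutant.

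The genes most like Tnmd over the 6 libraries, by Pearson's r of log2(RPKM + 0.5) among 13119 genes, were 4930512H18Rik (0.983), Mdh1 (0.979), Dld (0.978), Akr1b10 (0.977) and Prr32 (0.977). Mdh1 and Dld encode enzymes of energy metabolism. Those most like Kera were Fxr1 (0.997), Tceal7 (0.988), Mospd1 (0.985), Ppp1r3c (0.979) and Etfbkmt (0.975). Within the list, Tnmd was nearest to Kera (0.966), then Dcn (0.807), Lum (0.752) and Scx (0.692), and farthest from Fmod (-0.186). The 6 points fall into 3 groups of 2 libraries and are not independent, so these values are a description.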

How the data were processed

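RNA-Seq of diaphragm at embryonic day 14.75 was taken from 6 libraries, grouped by the genotype and titles in their labels. The list of tendon genes and the further lists were chosen with earlier results of these data known. Libraries were made from oligo-dT selected RNA. Per the file headers the authors deposited RPKM, which correct for gene length and depth but not for RNA composition, with a mark for genes without reads. STAR and the build mm9 are named in the submitters' processing notes. The counting program and the use of strand are not given in the sources used here. The files hold no coordinates, so positions are from GENCODE M21 (GRCm38), joined by Ensembl identifier, which 21583 of 23073 genes matched. Depth was derived from the floor values of 223 microRNA genes, among which 81.2% agreed on it. Counting errors could not be computed, since read counts were not used here.

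RPKM were transformed to log2(RPKM + 0.5), and genes with a mean of at least 0.5 RPKM over the 4 libraries compared were tested with limma 3.58.1 (lmFit, eBayes with trend) in R 4.3.3, with only the groups compared in a fit and a threshold of 0.05. The procedure was tested on simulated data. Pearson's r between the libraries of a group was 0.984 (mutant), 0.926 (Wnt1-Ribotag) and 0.990 (WT). The genes named are all 10 of the list, from each tendon list those past the threshold and the 3 with the highest mean RPKM, neighbours or overlapping genes (Bop1, Epyc), the 5 genes most like Tnmd and Kera with a mean of at least 1 RPKM, and single markers. The most abundant markers of each marker list are given only as sums, and Erbb3, Sox10 and Col2a1 were named outside this rule. Upstream sequences were from RefSeq's table for 5 of the 10 genes; that of Kera lies in an annotated untranslated region and is not printed. Alternatives were pseudocounts of 0.1 and 1, other filters, quantile normalization, median-ratio scaling, no trend in eBayes, a fit of all 6 libraries, a replicate block, leaving out each library, and a correction for GC content and length in 20 bins each. Python 3.11.15 was used with pandas 2.3.3, numpy 2.4.6 and matplotlib 3.10.9.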

Additional observations from a re-analysis of the deposited data

How the results depend on the processing

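Tnmd and Kera in mutant vs. WT muscle lay between 1.42 and 1.68 and between 1.40 and 1.65 on the log2 scale under all 13 alternatives, and the 7 other genes tested passed the adjusted threshold under 0 of them. The direction of Fmod in that comparison turned with median-ratio scaling (0.044), with the correction for GC content and length (0.11), without KO 2 (0.086) and without WT 5 (0.025), with a range of -0.24 to 0.086 without 1 library. The number of genes called was 24, and 0 without a filter, 0 with all 6 libraries in a fit, 1 with the correction for GC content and length, and 10 to 106 without 1 library (10 without KO 2, 106 without WT 5 and 90 without WT 6). The split of calls was 7 higher and 17 lower, and 11 higher and 16 lower with median-ratio scaling. The median of the list, which includes Tnmd and Kera that chose it, was 0.21, and 0.32 with median-ratio scaling and 0.14 to 0.30 without 1 library. With Tnmd and Kera left out it was 0.17, and 0.29 with median-ratio scaling, 0.055 with quantile normalization and 0.028 to 0.22 without 1 library. The median of the 67 further tendon genes was -0.29, and -0.069 after the correction and -0.42 to -0.065 without 1 library, nearest to 0 without KO 2. The median of the regulators was -0.41, and -0.30 with either scaling, -0.16 after the correction and -0.50 to -0.25 without 1 library. That of the proteoglycans was 0.043, and 0.028 to 0.22 without 1 library. That of the thrombospondins was -0.31, and -0.19 with median-ratio scaling, -0.20 with quantile normalization and -0.11 after the correction.

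In Wnt1-Ribotag vs. WT muscle 1 gene was called, and 0 without a filter, 2 with median-ratio scaling or after the correction, 138 with all 6 libraries and 26 to 5965 without 1 library. Leaving out a Wnt1-Ribotag library leaves a lone sample assumed to vary like the other group, and 4482 (without 1) and 5965 (without 2) genes were then called. Dcn, Lum and Thbs4 passed as lower in those 2 fits alone, and Scx, Fmod and Chodl each passed in 1 of the 13 alternatives. Without 1 library, Kera ranged from -0.53 to 0.23 (above 0 without Wnt1-Ribotag 1), Mkx from -0.32 to 0.42 (below 0 without Wnt1-Ribotag 2 or WT 5) and Fmod from -0.58 to 0.30 (above 0 without Wnt1-Ribotag 2). In Wnt1-Ribotag vs. mutant muscle 171 genes were called, and 112 without a filter, 83 with quantile normalization, 692 with all 6 libraries, 71 after the correction and 112 to 3672 without 1 library (2538 without Wnt1-Ribotag 1, 3672 without Wnt1-Ribotag 2). Dcn and Lum passed as lower in 4 of 14 alternatives, namely all 6 libraries, the replicate block, and without either Wnt1-Ribotag library. Without 1 library, Fmod ranged from -0.51 to 0.37 (above 0 without KO 1 or Wnt1-Ribotag 2) and Mkx from -0.55 to 0.19 (above 0 without Wnt1-Ribotag 1). The cause of these changes was not tested. Of the values of single genes 325 were unchanged, 17 came to pass the threshold, 11 changed direction and 7 values of Tnmd or Kera moved by more than their SE. Unchanged means the same direction and side of the threshold, or for Tnmd and Kera, which had no test, a move within their SE.

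The Wnt1-Ribotag and mutant libraries share the numbers 1 and 2. With the replicate block 842 genes were called, 578 of them higher. With 2 pairs the numbers are not known to pair the samples, and the correlation of the deviations was 0.17. Among the listed genes, Mkx, Comp, Fmod, Lum and Scx differed by as much in RPKM between the libraries of a group as between mutant and WT muscle.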

Other observations

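A few further genes of these lists, chosen after their values were seen, are given here. Sox9, a transcription factor of cartilage and of progenitors where tendon joins bone, had an RPKM of 2.72 and 3.19 in WT and 1.14 and 1.61 in the mutant, with a log2 difference of -0.89 (adjusted p = 0.137 from limma). The tenascin C gene Tnc, which encodes a matrix glycoprotein of tendon and its junction with muscle, was 28.0 and 33.6 RPKM in WT and 20.2 and 18.3 in the mutant, a log2 fold change of -0.66 (adjusted p = 0.158 from limma). In the other direction, 1500015O10Rik was 12.7 and 9.57 RPKM in WT and 20.3 and 19.8 in the mutant, a log2 fold change of 0.83 (adjusted p = 0.114 from limma). Ogn, the gene of the small leucine-rich proteoglycan osteoglycin, was 61.3 and 72.7 RPKM in WT and 92.1 and 104 in the mutant, a log2 fold change of 0.55 (adjusted p = 0.270 from limma). After the correction for GC content and length, Sox9 was -0.74, Tnc -0.36, 1500015O10Rik 0.75 and Ogn 0.42 on the log2 scale. None of these differences passed the adjusted threshold. The groups did not overlap in any of these genes, where 12.7% of all genes tested did not overlap upward and 37.4% downward.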
